A study of Mus musculus with 2 samples.

Results

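The genes described here are 46 regulators of the cell division cycle, measured in LSK cells of nondiabetic and diabetic mice. They are cyclins, cyclin-dependent kinases (CDKs), the phosphatases and kinases that switch CDKs on and off, CDK inhibitors, the retinoblastoma (pocket) proteins, the E2F transcription factors, and a few genes read as marks of dividing cells. Members were taken by name from a list of cycle genes, and every non-control probe whose transcript identifier belonged to a listed gene was read. This gave 66 probes for the 46 genes, of 55661 probes and 21360 named genes left on the arrays after outlier spots were dropped. Of the members, 22 were grouped as drivers of the cycle, 16 as inhibitors and 8 as neither.

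The LSK gate (Lineage-, Sca-1+, c-kit+) takes from the bone marrow the cells without mature blood markers, among them the blood stem cells and early progenitors. Their RNA was hybridised to 1-colour Agilent mouse arrays, 1 array for nondiabetic mice and 1 array for mice made diabetic with STZ (streptozotocin), a drug toxic to the insulin-producing beta cells. In the labels both groups are female C57BL/6J mice, with 3 mice and 8.3 ng of amplified total RNA for each array, and whether the RNA of those mice was pooled is not given in the sources used here. The paper describes its mice as male, and in its methods the controls received citrate buffer. The labels name no genetic change in either group. The time between STZ and the collection of the arrayed cells is not given in the sources used here. With 1 array per condition there is no replicate and no test, so every difference below describes these 2 arrays.

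A cell enters the cycle when D-type cyclins with CDK4 or CDK6, and then E-type cyclins with CDK2, phosphorylate the pocket proteins and release the E2F factors, which transcribe the genes of DNA replication. A-type cyclins then carry the cell through replication, and B-type cyclins with CDK1, backed by the Aurora and Polo-like kinases, drive mitosis. CDK inhibitors of the CIP/KIP and INK4 families hold these kinases back, and in bone marrow they are known for keeping many blood stem cells at rest while progenitors divide.

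Genes that peak in late G2 and mitosis often carry 2 kinds of short letters in their promoters, CCAAT boxes and a CHR (cell cycle genes homology region, TTTGAA), known as targets of NF-Y and of the DREAM and MuvB complexes. RefSeq promoter windows of 300 bases, 250 before and 50 after the annotated start, were matched to 34 of the 46 members (assembly GRCm38.p6). Both motifs were searched on both strands, and a match of the former may share end letters with a match of the latter. All 9 G2 and mitosis members with a window held CCAAT, against 37.4% of all 32851 promoter windows and 48.4% of the windows of the other members. TTTGAA was found in 7 of those 9 windows, all but Bub1 and Ccnb1, against 17.9% of all windows and 16.1% of those of the other members. Both motifs together were present in 7 of the 9 windows and in 6.95% of all windows, whereas of 31 windows of the other members (25 genes) 9.68% held both. A match is a description of the letters and not a site in use, and a window without a match says only that the letters are not in it. The 150 bases just before the start are shown for 4 genes of this list chosen after their values were seen because their array signals went in different directions, each read 5′ to 3′ on the gene's strand, with TTTGAA and the CCAAT box in capitals (the box reads ATTGG where it lies on the opposite strand). All 4 lie on the minus strand, at chr2:172370571-172370720 for Aurka, chr13:100786487-100786636 for Ccnb1, chr10:69352913-69353062 for Cdk1 and chr17:24251410-24251559 for Ccnf.
Aurka: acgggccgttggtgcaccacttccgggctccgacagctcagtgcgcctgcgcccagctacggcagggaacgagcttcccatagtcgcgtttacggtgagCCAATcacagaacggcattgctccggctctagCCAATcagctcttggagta
Ccnb1: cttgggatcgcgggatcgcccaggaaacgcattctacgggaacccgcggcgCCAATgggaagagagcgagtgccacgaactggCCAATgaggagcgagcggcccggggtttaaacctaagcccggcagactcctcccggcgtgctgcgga
Cdk1: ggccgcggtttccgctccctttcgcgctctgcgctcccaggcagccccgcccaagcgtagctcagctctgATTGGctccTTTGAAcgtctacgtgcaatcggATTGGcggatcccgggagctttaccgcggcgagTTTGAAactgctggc
Ccnf: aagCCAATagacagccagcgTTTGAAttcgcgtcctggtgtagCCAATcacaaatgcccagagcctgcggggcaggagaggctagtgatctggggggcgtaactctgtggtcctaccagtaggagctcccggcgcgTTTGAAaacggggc
Each of the 4 stretches holds 2 CCAAT boxes, Cdk1 and Ccnf hold 2 TTTGAA each, and the TTTGAA of Aurka lies in its window outside the stretch shown.

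The arrays had similar overall signal. Of 59305 non-control spots, 62.7% on the nondiabetic and 63.9% on the diabetic array were well above background by the scanner software's flag, and 0 spots were saturated. The processed intensity, the spot brightness after background subtraction in arbitrary units, had a median of 29.8 on the nondiabetic and 32.2 on the diabetic array. Ratios below are diabetic over nondiabetic, after the log2 intensity of each array was lowered by its own 75th percentile (168 and 182 in intensity), so a gene with equal scaled signal has a log2 ratio of 0. The median log2 ratio of the 15200 genes with a ratio was 0.02. Where a probe was well above background on 1 array only, its ratio is a bound against the dimmer array's lowest signal that passed the flag (intensities of 10.2 and 10.1), or against the dim probe's own signal where that is higher. The software's own error of a log2 ratio ran from 0.20 for Mki67 to 0.31 for Ccnh among members measured on both arrays. For the members with a bound, Aurkb and Cdkn1a, it was 0.42 and 0.61. That error covers the reading of a spot and not the difference between mice. The log2 ratios of E2f1, Plk1, Rb1 and both Ccnd3 probes, among others, lay within that error of 0, so their signs are readings only. In a bulk sample, fewer dividing cells and less RNA per cell cannot be told apart.

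The sorted cells carried the markers of their gate. Kit, the gene of c-kit, had an intensity of 4635 on the nondiabetic and 4735 on the diabetic array. Ly6a, which encodes Sca-1, had 475 and 701. Of the 9 LSK genes listed, Mecom read 182 and 86.1 (log2 ratio -1.20, and -0.16 with its other probe). Slamf1 was not well above background at 5.29 and read 28.7 on the diabetic array, at least 2.59-fold higher. The other 7 stayed under 2-fold. The other marker lists also differed in summed intensity between the arrays. Summed over 8 erythroid genes, the intensity was 5978 on the nondiabetic and 9335 on the diabetic array, with 3 genes at least 2-fold higher (Slc4a1, Hba-a1 and Hbb-b1). The other 4 erythroid genes with a ratio (Klf1, Epor, Car1 and Ermap) had log2 ratios from -0.30 to -0.17 with their brightest probes. The median of the list was -0.17. The other Car1 probe gave -0.35, and the other Ermap probes gave -1.52 and 1.54. The sum over 10 granulocyte and monocyte genes was 9815 and 8165, that over 8 T and NK cell genes 4953 and 4232, and that over 7 B cell genes 752 and 1112. The sum over 6 megakaryocyte genes was 1392 and 1799.6, and that over 7 stroma and endothelium genes 1122 and 1857. In the latter list Pecam1 read 162 and 936 (log2 ratio 2.41). The other genes of that list with a ratio (Cxcl12, Col1a2 and Kdr) had log2 ratios from -1.07 to -0.11, and the list's median was -0.28. The sum over 9 LSK genes was 16192 and 18662. All these sums are before scaling. Genes well above background on the nondiabetic and diabetic array numbered 7 and 7 erythroid, 9 and 8 granulocyte and monocyte, 6 and 5 T and NK cell, 5 and 5 B cell, 5 and 5 megakaryocyte, 4 and 4 stroma and endothelium (Col1a1 and Cdh5 not among them), and 8 and 9 LSK. The part of these cells in the results below was not tested.

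Cycle genes were present on both arrays, and they did not move in a common direction. Of the 46 members, 41 had a ratio, 39 of them measured on both arrays and 2 as bounds. The other 5 (Ccna1, Ccne2, Cdkn2a, Cdkn2b and Cdk5) passed the flag on neither array. Among the 41, 6 were at least 2-fold higher on the diabetic array (Ccne1, Ccnb1, Aurka, Cdkn1b, Rbl2 and Ccnh), against a share of 11.0% of all genes. At least 2-fold lower were 5 (Ccnd1, Cdk2, Cdkn2c, Cdk8 and Ccnf), against 10.1% of all genes. Each gene is counted by its standing probe, and the other probes of Cdk8 had the opposite sign. Together 26.8% of the members differed by at least 2-fold, beside 21.1% of all genes by the same rule. These shares are not matched for brightness, and the members were mostly bright. The median log2 ratio of the members was 0.05, with 21 above 0 and 20 below it, and 18 lay within 0.5 of 0. With another background correction (normexp, with a constant added to every spot) 3 members were higher and 2 lower by at least 2-fold (Ccne1, Ccnb1, Aurka, Cdk8 and Ccnf), 12.2% of the members against 7.24% of all genes.

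**Figure D1:**
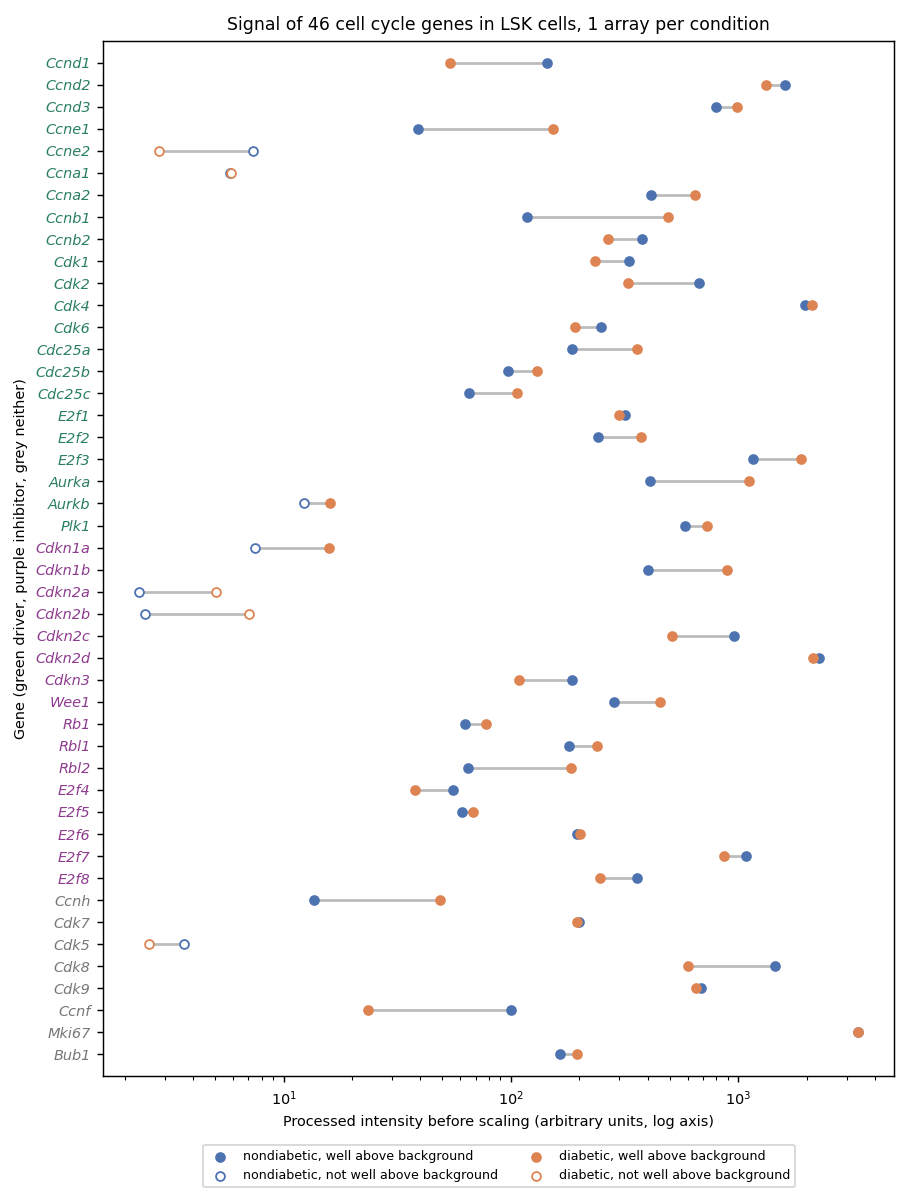
Processed intensity before scaling (arbitrary units, log axis) of the probe that stands for each of the 46 genes, with the nondiabetic array in blue and the diabetic array in orange and open circles for signals not well above background. The widest gaps between the arrays among detected genes were those of Ccnf, Ccnb1 and Ccne1, and Mki67 had nearly the same intensity on both (3382 and 3375).

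The D-type cyclins, which answer to growth signals at the start of the cycle, split. Ccnd1 (cyclin D1) had an intensity of 144 on the nondiabetic and 54.0 on the diabetic array, a log2 ratio of -1.53, or 2.89-fold lower. Ccnd2 (cyclin D2), abundant in blood progenitors, read 1603 and 1324, a log2 ratio of -0.39. Ccnd3 had 2 probes of opposite sign, at 799 and 992 (log2 ratio 0.20) and at 475.5 and 449.8 (log2 ratio -0.20). So the large difference among the D-type cyclins was in Ccnd1, and the others stayed under 2-fold.

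Their kinase partners Cdk4 and Cdk6 stayed under 2-fold. The probe standing for Cdk4 read 1973 and 2109, a log2 ratio of -0.02, and its other probes read 1036 and 1168 (log2 ratio 0.06) and 363 and 518 (log2 ratio 0.40). Cdk6, the D-type partner prominent in blood progenitors, read 248 and 191, a log2 ratio of -0.49. Cdk2, the partner of cyclins E and A at the start of replication, was the only cell cycle CDK at least 2-fold lower, with 671 on the nondiabetic and 328 on the diabetic array and a log2 ratio of -1.15.

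The E-type cyclins activate Cdk2. Ccne1 (cyclin E1) was read by 2 probes that gave different sizes. The probe standing for the gene had an intensity of 39.1 on the nondiabetic and 153.7 on the diabetic array, 3.62-fold higher (log2 ratio 1.86). The other, A_51_P408946, had 57.7 and 79.6, 1.27-fold higher (log2 ratio 0.35). Both lay above 0, so the probes shared a sign but not a size. Ccne2 was not well above background, at 7.36 and 2.84.

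The A-type cyclins act in replication and G2. Ccna2 (cyclin A2), the form of dividing body cells, read 412 and 643, a log2 ratio of 0.52. Ccna1, best known from the germ line, was not well above background at 5.81 and 5.89.

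The B-type cyclins and their kinase Cdk1 carry mitosis, and probes of the same gene disagreed widely here, for both Ccnb1 and Cdk1. The probe that stands for Ccnb1 (cyclin B1), A_55_P1952256, read 118 on the nondiabetic and 491 on the diabetic array, 3.84-fold higher and the largest log2 ratio of the members, 1.94. The other Ccnb1 probes read 151 and 187 (log2 ratio 0.20) and 131 and 152 (log2 ratio 0.10). All 3 lay above 0, but 1 alone was past 2-fold, and their mean log2 ratio was 0.75. Ccnb2 (cyclin B2), with 1 probe, read 376 and 267, a log2 ratio of -0.61.

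Cdk1 was measured by 3 probes that did not share a sign. The standing probe read 332 and 236, a log2 ratio of -0.61. A_55_P2016652 read 71.3 and 143.7 (log2 ratio 0.89), and A_55_P2048588 read 21.3 and 50.1 (log2 ratio 1.12). The standing probe was thus lower and the others higher on the diabetic array, and no direction can be given for Cdk1. The standing probes of all 4 cell cycle CDKs had log2 ratios between -1.15 and -0.02, but Cdk4 lay just above 0 when the ratios were centred on their median, and Cdk1 (0.47) and Cdk4 (0.14) were above 0 in the mean over their probes.

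Mitotic kinases and the CDC25 phosphatases, which remove the inhibitory phosphates from CDKs, lay above 0. Aurka (Aurora A), needed for spindle poles, had an intensity of 409.8 on the nondiabetic and 1119.8 on the diabetic array, 2.52-fold higher (log2 ratio 1.33). Aurkb (Aurora B) was not well above background on the nondiabetic array at 12.3 and passed the flag on the diabetic array at 16.1. It is counted as a bound because it passed the flag on 1 array only, but its dim signal lay above the limit of 10.2. Its 1.20-fold is therefore the measured ratio and not a lower limit. The software's error of its log2 ratio, 0.42, was larger than the log2 ratio of 0.26. Plk1 (Polo-like kinase 1) read 585 and 728, a log2 ratio of 0.20. These 3 kinases kept their sign under every setting that gave them a value, but of the mitotic kinases Aurka alone reached 2-fold. The settings reread the same 2 arrays, and Plk1 and Aurkb lay within their software errors of 0.

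The 3 CDC25 genes ran from a log2 ratio of 0.30 to 0.82 and stayed above 0 under each setting tried. Cdc25a, which acts at the entry to replication, read 186 and 357 (log2 ratio 0.82). Cdc25b read 97.4 and 130.5 (log2 ratio 0.30), and the mitotic Cdc25c read 65.2 and 106.8 (log2 ratio 0.59). With 3 genes and none at 2-fold, the CDC25 family shared a sign and no more.

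E2F factors split by sign, and none of the 8 reached 2-fold in either direction. The activator E2f1 read 318 and 299, a log2 ratio of -0.20. E2f2 read 241 and 374 (log2 ratio 0.52). E2f3 read 1161 and 1899 with its standing probe (log2 ratio 0.59) and 124 and 128 with the other (log2 ratio -0.08). The standing probes of the 3 activators therefore shared no sign, though that of E2f1 lay within its software error of 0.

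The repressor E2Fs had a median log2 ratio of -0.43, with 4 of 5 below 0. E2f4, the E2F that occupies promoters in resting cells together with pocket proteins, read 55.9 and 38.1 (log2 ratio -0.67). The atypical E2f8 (log2 ratio -0.65) and E2f7 (log2 ratio -0.43), which shut E2F targets down late in replication, were also below 0. E2f6 (log2 ratio -0.08) and E2f5 (log2 ratio 0.05) were near 0, and E2f5 changed sign, to -0.03, with normexp.

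**Figure D2:**
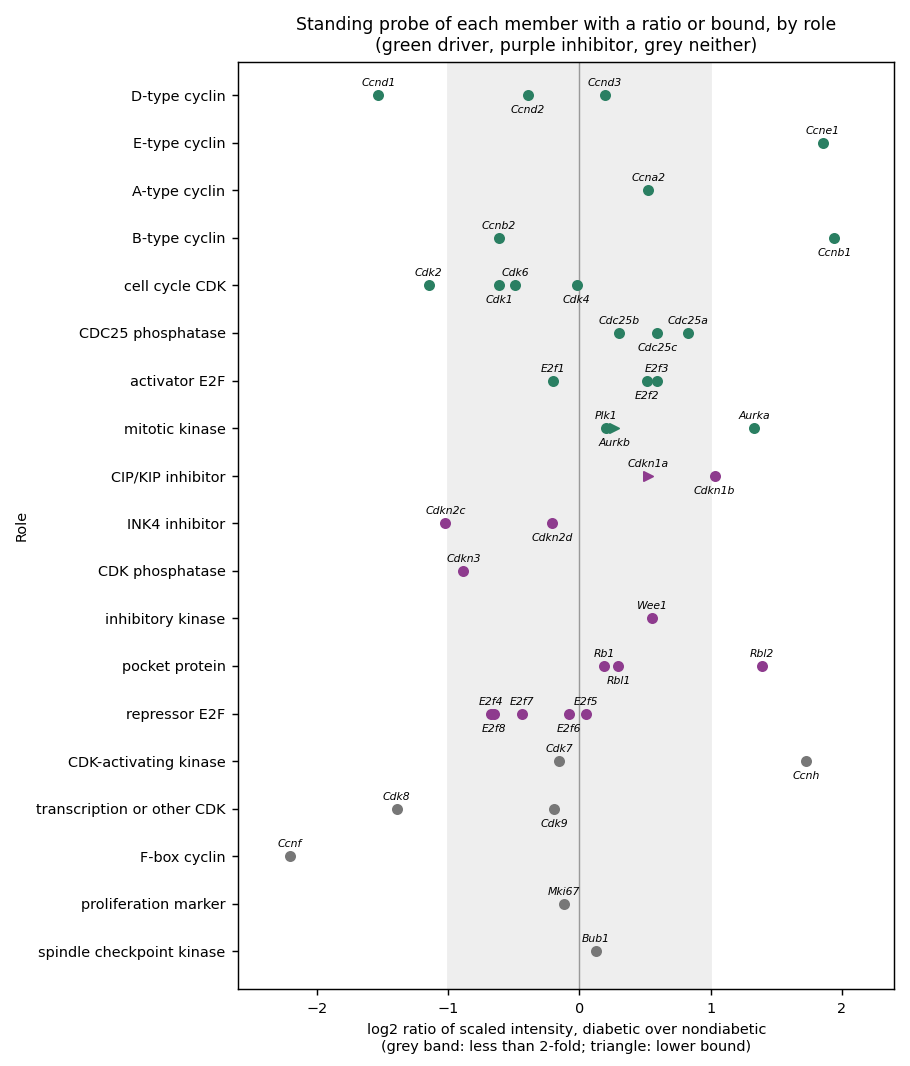
Log2 ratio of scaled intensity (diabetic over nondiabetic) of the standing probe of the 41 members with a ratio, in rows by role. Triangles mark bounds, that of Aurkb being its measured ratio, and a grey band marks less than 2-fold. Points lie on both sides of 0 among drivers (green), inhibitors (purple) and the remaining genes (grey), and 30 of 41 lie within the band.

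Of the CDK inhibitors, the 2 CIP/KIP genes were above 0 and the 2 detected INK4 genes below it. Cdkn1b (p27Kip1), which restrains Cdk2 and marks resting blood stem cells, had an intensity of 401.5 on the nondiabetic and 889 on the diabetic array, 2.04-fold higher (log2 ratio 1.03). Cdkn1a, the inhibitor induced by DNA damage through p53, was not well above background on the nondiabetic array at 7.50 and was so on the diabetic array at 15.9, at least 1.44-fold higher. For Cdkn1a the software's error of the log2 ratio was 0.61, and the SD over spots was 0.66. Its other probe passed the flag on neither array, at 4.48 and 5.98.

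The INK4 genes encode inhibitors of Cdk4 and Cdk6. Cdkn2c read 956 on the nondiabetic and 511 on the diabetic array, 2.03-fold lower (log2 ratio -1.02). Cdkn2d read 2268 and 2131, a log2 ratio of -0.21. Cdkn2a, the senescence gene of this family, was not well above background with either probe (2.32 and 5.03, and 2.49 and 2.43), and neither was Cdkn2b (2.45 and 7.07, and 2.19 and 2.18). The medians of negative control spots were 2.35 and 2.32, and at this signal a difference in the INK4 pair could not be read. Cdkn1b and Cdkn2c both sat at the edge of 2-fold, and each dropped under it under some of the scalings tried.

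Other brakes also went both ways. Cdkn3, a phosphatase that acts on CDKs and is itself a G2 and mitosis gene, read 185 and 109, a log2 ratio of -0.88. Wee1, the kinase that places the inhibitory phosphate on Cdk1, read 283 and 451, a log2 ratio of 0.56.

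All 3 pocket proteins, which hold E2F factors inactive, were above 0 under each setting tried. Rb1 read 62.7 and 77.4 (log2 ratio 0.19), within its software error of 0.22. Rbl1 (p107) read 179.6 and 239 with its standing probe (log2 ratio 0.30) and 93.8 and 239 with the other (log2 ratio 1.23). Rbl2 (p130), the pocket protein of resting cells, had the largest difference of the inhibitors, with 64.8 on the nondiabetic and 184 on the diabetic array, 2.63-fold higher (log2 ratio 1.39). Its partner E2f4 had a ratio of the opposite sign.

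The log2 ratios of the inhibitors (-1.02 to 1.39) lay within the range of those of the drivers (-1.53 to 1.94). The 20 drivers with a ratio had a median log2 ratio of 0.23, with 12 above 0, 3 higher and 2 lower by 2-fold or more (25.0%). The 14 inhibitors had a median of -0.01, with 7 above 0, 2 higher and 1 lower by 2-fold or more (21.4%). Of all genes, 11.0% were higher and 10.1% lower, 21.1% in all. The medians differed by 0.25, and by 0.08 when dim probes also kept their measured ratios. Both medians include the bounds of Aurkb and Cdkn1a at their bound, and that of the inhibitors moved to 0.01 with median centring and to 0.12 with the dim probes.

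**Figure D3:**
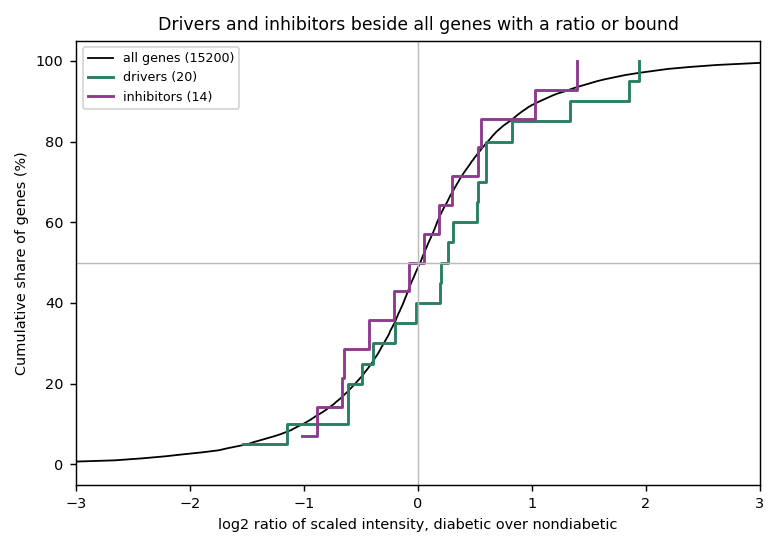
Cumulative share of genes (%) against the log2 ratio of scaled intensity (diabetic over nondiabetic) for the 20 drivers, the 14 inhibitors and all 15200 genes with a ratio. Both member curves run along that of all genes, with medians of 0.23, -0.01 and 0.02.

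By phase, the result was as mixed. The 12 members of the G2 and mitosis list (Ccna2, Ccnb1, Ccnb2, Ccnf, Cdk1, Cdc25c, Aurka, Aurkb, Plk1, Cdkn3, Mki67 and Bub1) had a median log2 ratio of 0.16, with 7 above 0, 5 below, 2 higher and 1 lower by 2-fold or more (25.0%, against 21.1% of all genes), and with Cdk1 counted by its standing probe. The 8 G1 and S members with a ratio had a median of 0.05, with 4 above 0 and 4 below, and that median was -0.20 when dim probes kept their ratios. The genes whose promoter letters are shown above were picked to span the ratios, with -2.21 for Ccnf, 1.33 for Aurka, 1.94 for the standing probe of Ccnb1, and -0.61, 0.89 and 1.12 for the probes of Cdk1.

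Mki67, whose protein Ki-67 is the standard mark of cycling cells, had the closest probes of the 11 members with ratios from several. They read 3382 and 3375 (log2 ratio -0.12) and 2399 and 2708 (log2 ratio 0.06). Bub1, a spindle checkpoint kinase, read 165 and 195 (log2 ratio 0.13). Neither mark of dividing cells came near 2-fold.

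Ccnf (cyclin F), the F-box cyclin that marks proteins for destruction in G2 and binds no CDK, had the lowest ratio of the members. It read 100.3 on the nondiabetic and 23.6 on the diabetic array, 4.62-fold lower (log2 ratio -2.21), and with normexp the log2 ratio was -1.09. Ccnf and Aurka were the 2 of the 11 genes past 2-fold that stayed there under each setting tried, but each has 1 probe, so the settings that average or choose among probes could not move them.

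The CDK-activating kinase and the transcription CDKs were read as well. Ccnh (cyclin H), which with Cdk7 activates other CDKs and acts in transcription, read 13.6 on the nondiabetic and 49.0 on the diabetic array, 3.32-fold higher (log2 ratio 1.73). The nondiabetic value lay close to the limit of 10.2 for signals well above background, and the log2 ratio was 0.43 with normexp. Its partner Cdk7 read 199.9 and 194.6 (log2 ratio -0.16), and 98.6 and 70.2 with the other probe (log2 ratio -0.61). The partners thus differed in sign on these arrays, though the brighter Cdk7 probe lay within its software error of 0.

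Cdk8, the kinase of the Mediator complex, had the widest spread between probes. The standing probe, A_52_P504068, read 1459 on the nondiabetic and 603 on the diabetic array, 2.63-fold lower (log2 ratio -1.39). The other Cdk8 probes read 330 and 513 (log2 ratio 0.52) and 125 and 207 (log2 ratio 0.61). As with Cdk1, no direction can be given for the gene, and the mean log2 ratio of its probes was -0.09. Cdk9, which releases paused RNA polymerase, read 686 and 651 (log2 ratio -0.19), with 38.6 and 51.8 (log2 ratio 0.30) and 85.0 and 98.1 (log2 ratio 0.09) on its other probes. Cdk5, a kinase known from neurons, was not well above background at 3.65 and 2.55.

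Agreement between probes of a gene was a general limit of these arrays and not one of the cycle genes alone. Of the 46 members, 31 had 1 probe, and 11 had ratios from several. In 4 of these 11 (Ccne1, Ccnb1, Cdk1 and Cdk8) the probes lay more than 2-fold apart, against 40.1% of the 3846 genes with ratios from several probes. In 7 of the 11 (Ccnd3, Cdk1, Cdk4, E2f3, Cdk8, Cdk9 and Mki67) they had opposite signs, against 49.2% of those genes. Counted by probe, 57 of the 66 member probes had a ratio, 8 of them higher and 5 lower by 2-fold or more, against 11.2% of all probes in each direction.

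**Figure D4:**
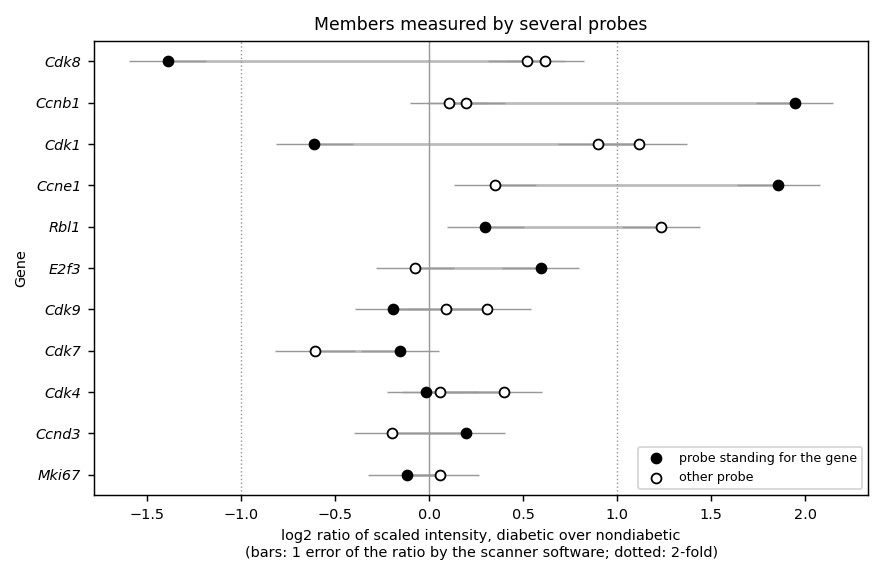
Log2 ratio of scaled intensity (diabetic over nondiabetic) for each probe of the 11 members with ratios from several probes, with the standing probe filled, the others open, and thin bars for the scanner software's error of each ratio. The probes of Cdk8, Ccnb1, Cdk1 and Ccne1 lie more than 2-fold apart, and those of Mki67 within 0.18 of each other.

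For 4 members the same probe was printed 10 times on each array, which shows the spread of a reading within an array. Spots marked as outliers were left out. For Bub1, 7 spots remained, with intensities from 157 to 172 on the nondiabetic and from 188 to 217 on the diabetic array, so the ranges did not overlap, and the ratio's SD over spots was 0.10 in log2. For Rb1, 8 spots remained, from 57.7 to 70.8 and from 72.2 to 84.8, also without overlap and with an SD of 0.10. These ranges are before scaling. After scaling 7 of 8 Rb1 spots were higher on the diabetic array and the ranges of the arrays overlapped, while those of Bub1 did not. Spots of 1 array share their RNA.

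Dim probes were less steady. For Cdkn1a, 9 spots remained, from 4.34 to 16.7 (median 6.59) on the nondiabetic and from 14.6 to 18.6 (median 15.9) on the diabetic array. The ranges overlapped, 3 nondiabetic and 9 diabetic spots were well above background, and 8 of 9 spots were higher on the diabetic array after scaling. The 10 spots of Ccna1 ran from 2.81 to 10.4 and from 2.14 to 11.3, with 0 and 1 of them well above background. Over the 237 probes of the arrays with at least 5 spots that were bright on both, the median SD over spots was 0.13 in log2.

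**Figure D5:**
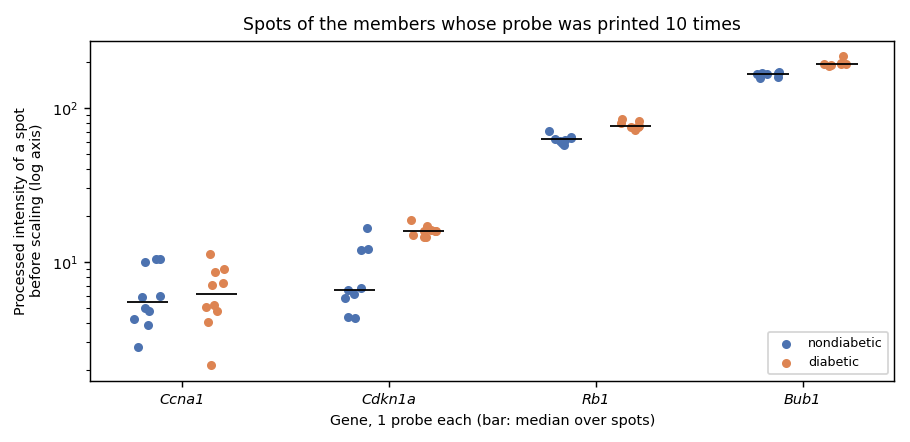
Processed intensity of each kept spot before scaling (log axis) for the 4 members whose probe was printed 10 times, nondiabetic in blue and diabetic in orange, with a bar at the median over spots. Before scaling the arrays separate for Rb1 and Bub1 and overlap for Ccna1 and Cdkn1a, and after scaling those of Rb1 overlap too.

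How often a gene passed 2-fold depended on its brightness. When all genes were split by mean intensity into 3 groups of equal size, 30.3% of the dimmest, 25.3% of the middle and 7.72% of the brightest group differed by at least 2-fold. The members fell mostly among the bright genes, with 5 in the dimmest group, 15 in the middle and 21 in the brightest. Of these, 2, 4 and 5 differed by at least 2-fold. In the brightest group that is 5 of 21 members (Aurka, Cdk2, Cdkn1b, Cdkn2c and Cdk8), beside 7.72% of all genes there. The difference was not tested. Cdkn1b and Cdkn2c were at the edge of 2-fold, and the other probes of Cdk8 had the opposite sign. With normexp Cdk2, Cdkn1b and Cdkn2c fell under 2-fold, while the share over all genes also fell, to 7.24%.

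Other genes of the cycle, which are not among the 46, were read from 2 lists. Of 61 such genes, 60 had a ratio, 7 were higher and 9 lower by 2-fold or more (26.7%, against 21.1% of all genes), and the median log2 ratio was -0.06. In the list of 33 G2 and mitosis genes, the kinetochore genes Cenpe (log2 ratio 1.84) and Nuf2 (1.01) and the mitotic motor gene Kif4 (1.29) were at least 2-fold higher. The spindle checkpoint kinase Ttk (-2.00), the checkpoint gene Mad2l1 (-1.22) and the motor genes Kif23 (-1.25) and Kif11 (-1.05) were at least 2-fold lower, though the other Mad2l1 probes gave -0.90 and 0.49. So was Mybl2 (-1.98), the B-Myb factor that works with MuvB on the CHR of mitotic genes, while its other probes gave 0.07 and 0.23.

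In the list of 28 G1 genes, cyclins and CDKs, 4 were higher and 4 lower by at least 2-fold. Skp2, which targets the Cdkn1b protein for destruction, had a log2 ratio of 1.37. Tfdp2, a dimer partner of E2F factors, had 1.22 with its standing probe and 0.24 with the other. Ccng2 and Cdk11b both had 1.14. On the lower side, Lin37, a subunit of MuvB, had a log2 ratio of -1.70, and Cdk13, a transcription CDK, had -1.29. Ccnc (cyclin C), the partner of Cdk8, had -1.30 with its standing probe and 0.28 with the other. Cdkn1c (p57Kip2), the imprinted member of the CIP/KIP family, read 21.7 on the nondiabetic array. It was not well above background on the diabetic array at 3.26, at least 2.34-fold lower. The software's error of the Cdkn1c log2 ratio was nearly as large as the bound, and that of Cdkn1a was larger than its bound. The bound of Cdkn1c was thus opposite in sign to Cdkn1a and Cdkn1b. Whether the CIP/KIP family shared a direction could not be read, because only Cdkn1b was well above background on both arrays.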

How the data were processed

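LSK cell RNA from nondiabetic and diabetic mice was measured on 2 arrays. The authors deposited scanner output (Agilent Feature Extraction 11.5.1.1 per the file headers), whose processed intensity had been background-corrected within each array and not normalized between arrays. The deposited table of processed intensity proved to be the same values times a constant per array. The number of unassigned value columns was 0.

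Log2 intensities were scaled to the 75th percentile of each array, set over its non-control spots. A total of 314 outlier spots were left out, and spots of a probe were averaged. Probes were named through transcript identifiers against RefSeq (GRCm38.p6), which named 53.7% of 59305 spots. The probe with the highest mean signal stood for a gene. With 1 array per condition no test was made, and the number of arrays limits the precision. Genes were described by a 2-fold limit, beside all genes.

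The 46 members, the lists of further cycle genes and the marker lists were chosen with earlier results of these data known. Genes at least 2-fold apart, with a bound or with disagreeing probes, and the defining gene of each role, are given in full. Further genes are named where at least 2-fold apart. Promoter windows came from RefSeq, while probe and protein sequences are not used here.

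Alternatives were normexp (offset 50), quantile normalization, median centring, loess, keeping dim probes unfiltered, restricting to probes flagged bright on both arrays, averaging the probes of a gene, and the deposited table. Normexp was planned on the mean and run on the median spot intensity. Code was tested on simulated data. Python 3.11.15, numpy 2.4.6, pandas 2.3.3, scipy 1.17.1, R 4.3.3 and limma 3.58.1 were used.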

Additional observations from a re-analysis of the deposited data

How the results depend on the processing

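Every difference rests on 1 array per condition, so no replicate could be left out. No paired analysis was possible because a block needs more than 1 array in a group. Normexp lowered the counts of members at least 2-fold higher from 6 to 3 and lower from 5 to 2, those of all genes from 1667 to 597 and from 1541 to 497, and those of the further cycle genes from 7 to 4 and from 9 to 1. It changes the background model, the input and the offset together, and the cause was not tested. With no filter on dim probes the median log2 ratio of inhibitors was 0.12, the difference of drivers and inhibitors 0.078 and the median of G1 and S members -0.20, because undetected genes then entered. Of the 11 members past 2-fold, normexp kept 5, without Ccnd1, Cdk2, Cdkn1b, Cdkn2c, Rbl2 and Ccnh. Quantile normalization and loess each kept 10, without Cdkn1b, and median centring kept 10, without Cdkn2c. The mean over probes kept 9, without Ccnb1 and Cdk8. No filter, probes bright on both arrays and the deposited table kept all 11, and no filter added Ccne2 and Cdkn2b. A rule chosen after seeing the data, the probe with the highest lower signal, kept 9, without Ccne1 and Ccnb1.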
